A study of Homo sapiens with 38 samples.

Results

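The lysosomal and autophagy gene set comprised 39 listed human genes for lysosomal hydrolases, lysosomal membrane proteins and autophagy proteins. It was taken by gene symbol, with the probe set of highest mean over the 38 arrays, among those naming the gene alone, standing for each gene. Of the 39, 38 had a probe set that named them alone, and 33 passed the filter on low values and were tested, among 8511 tested of 19775 genes on the array. GLB1, the gene of lysosomal β-galactosidase, was read only by a probe set that also names TMPPE, so its values are given apart and are not counted among the 33. For GABARAPL1 a brighter probe set that also names GABARAPL3 (mean 10.33) was not used. Its values here come from a probe set with a mean of 7.99. GAA, IDUA, FUCA1, ARSA and TFEB did not pass the filter and were not tested, with arrays between 3.12 and 5.62. CTSS passed the filter only through senescent arrays and CTSK and CTSO only through arrays of non-growing cells, so counts that include these 3 are not free of the choice of group.

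The arrays were Affymetrix gene expression arrays of IMR90 cells, which are normal human lung fibroblasts. Each was hybridised with biotinylated cRNA, for which 1 µg of RNA was the starting material. Values are the deposited log2 values, so a difference of 1 is a 2-fold change. Every group had 2 arrays and carried either the MLP vector control or a short hairpin, named shRB, shp107 or shp130 for its target, a protein of the retinoblastoma family. In experiment 1 each of the 4 was studied growing in DMEM with 10% FBS, in 0.1% FBS (low serum), confluent, and in ras-induced senescence, which gave 16 groups. Experiment 2 had 3 groups, with vector cells growing or senescent and shRB cells senescent. The labels used here name neither the ras construct nor the length of any treatment, and 1 cell line and 1 hairpin name per target limit each group as a model. The labels do not say that the 2 arrays of a group came from separate cultures, so p-values measure the spread between arrays, which may be technical. These are bulk RNA samples, in which fewer cells of a kind and less RNA per cell cannot be told apart.

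Lysosomes are acidic organelles in which hydrolases degrade proteins, glycans and lipids, and autophagy delivers cytoplasm to them inside autophagosomes. The transcription factor TFEB binds a short element with the core CACGTG, the CLEAR element, upstream of many lysosomal and autophagy genes. Senescent fibroblasts are commonly recognised by a histochemical stain for lysosomal β-galactosidase activity.

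Among RefSeq promoters (GRCh38.p14), 28 of the 39 genes were matched and 11 were not. The motif CACGTG, which reads the same on both strands, was searched in the 250 bases before each start. It stood upstream of 8 of the 28 matched genes (28.6%), namely ARSB, NEU1, CTSD, CD63, LAMP1, GAA, MCOLN1 and CTSA, against 7.73% of all 27305 genes. MCOLN1 and NEU1 are printed because both rose in senescent vector cells and were lower with shRB, CTSA because its product binds the NEU1 enzyme, and LAMP1 because its level moved little between groups. Capitals mark CACGTG, and each sequence runs 5′ to 3′ on the strand of its gene. The 4 stretches are chr19:7522374-7522623 (plus strand) for MCOLN1, chr6:31862822-31863071 (minus strand) for NEU1, chr20:45891085-45891334 (plus strand) for CTSA and chr13:113296989-113297238 (plus strand) for LAMP1.
MCOLN1: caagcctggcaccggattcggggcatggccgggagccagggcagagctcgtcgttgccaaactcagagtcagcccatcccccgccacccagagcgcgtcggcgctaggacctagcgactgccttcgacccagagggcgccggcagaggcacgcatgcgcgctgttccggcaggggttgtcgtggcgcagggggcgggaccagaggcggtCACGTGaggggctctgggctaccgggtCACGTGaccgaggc
NEU1: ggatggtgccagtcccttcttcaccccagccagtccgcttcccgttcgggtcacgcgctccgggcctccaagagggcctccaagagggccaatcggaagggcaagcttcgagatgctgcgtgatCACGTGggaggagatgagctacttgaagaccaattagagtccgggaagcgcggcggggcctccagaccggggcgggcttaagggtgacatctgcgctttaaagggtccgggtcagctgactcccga
CTSA: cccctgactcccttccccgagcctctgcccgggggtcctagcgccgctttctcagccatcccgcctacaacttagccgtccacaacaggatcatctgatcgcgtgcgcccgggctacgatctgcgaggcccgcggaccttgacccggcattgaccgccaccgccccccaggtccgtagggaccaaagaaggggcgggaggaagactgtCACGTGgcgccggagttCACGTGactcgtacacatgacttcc
LAMP1: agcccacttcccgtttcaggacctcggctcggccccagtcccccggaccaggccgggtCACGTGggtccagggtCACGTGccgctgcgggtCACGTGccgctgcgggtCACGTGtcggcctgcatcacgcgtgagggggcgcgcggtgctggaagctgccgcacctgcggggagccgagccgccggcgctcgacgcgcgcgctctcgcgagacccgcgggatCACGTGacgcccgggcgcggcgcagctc
LAMP1 held 5 copies and was the only one of the 35116 starts with 5 or more. MCOLN1 and CTSA held 2 copies and NEU1 held 1. Of the 7 tested genes with the motif, 3 rose and 0 fell in senescent cells averaged over the 4 constructs, and of the 16 tested and matched genes without it 7 rose and 6 fell, against 24.3% and 35.7% of all tested genes. The difference between these counts was not tested. A match is a description of these letters and not evidence of binding.

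Across the series, array medians ran from 3.27 to 3.41, and replicate arrays correlated at 0.941 to 0.997 over the tested genes, with the confluent vector pair lowest. RB1 averaged 4.06 to 5.59 in the shRB groups of experiment 1 against 9.39 to 9.83 in vector cells, and 6.86 against 9.14 in experiment 2. RBL2, the p130 gene, averaged 4.69 to 5.59 with shp130 against 7.58 to 8.31 in vector cells. RBL1, the p107 gene, was dim with the vector too, and its level was not called lower with shp107, so that hairpin could not be checked here. All 8 fibroblast markers were above 5 on some array, while none of 10 blood and macrophage markers and none of 6 epithelial markers was, with highest values of 3.86 and 3.72. Of 5 endothelial markers only TEK passed 5. The mean of the fibroblast markers was 10.83 to 11.5 on growing arrays and 9.47 to 10.47 on senescent arrays, and its part in the results below was not tested.

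**Figure D1:**
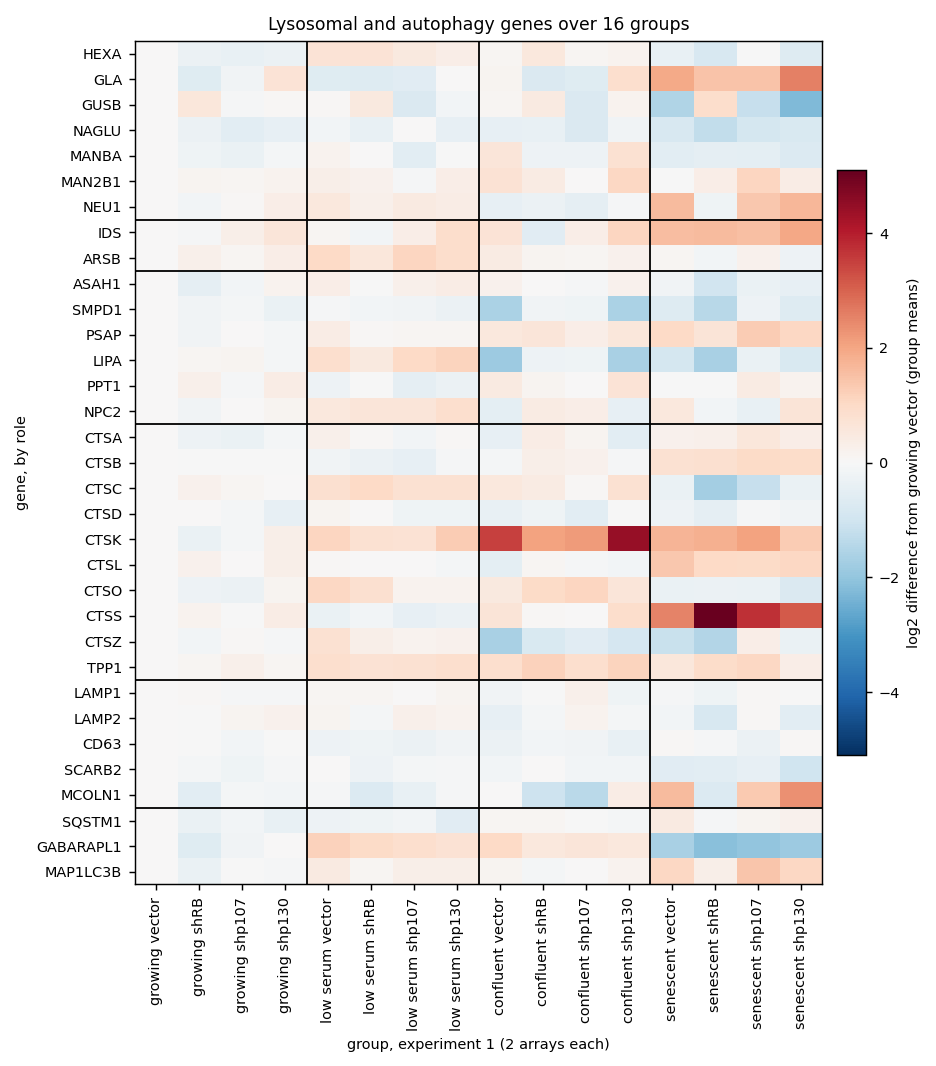
Heat map of the experiment 1 group means (2 arrays each) of the tested genes, ordered by role on the vertical axis, with the 16 groups on the horizontal axis. Colour is the log2 difference from the mean of the growing vector group, and CTSS in the senescent columns and CTSK in the confluent columns carry the strongest colour.

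The first question was which of these genes differed between growing and ras-senescent control cells. Only the senescent state was ras-induced, so effects of ras and of senescence cannot be told apart in any comparison of senescent with other states. In vector cells of experiment 1, 10 of 33 genes rose (30.3%) and 5 fell (15.2%), against 9.21% and 16.2% of all tested genes. The members were chosen with earlier results of these data known, and those that rose include CTSS and CTSK. These shares are thus not independent of these arrays. Here and below a gene is said to rise or fall when its limma p, adjusted by the Benjamini-Hochberg method over all 8511 genes, was under 0.05. The count of genes that rose was 10 without each of the 4 arrays in turn, and that of genes that fell was 2 without growing vector array 2 or senescent vector array 1, 3 without growing vector array 1 and 4 without senescent vector array 2. Rises spanned glycan, sulfate, lipid and protein degradation, the membrane channel MCOLN1 and the autophagosome protein MAP1LC3B. The median change of the 33 was -0.00 against -0.10 over all tested genes, so the set had no common direction. In experiment 2, 12 genes rose (36.4%) and 5 fell (15.2%), against 18.7% and 20.6% of all tested genes, with a median of 0.26 against 0.01. Without senescent vector array 2 of experiment 2 the 17 calls became 10. Across the experiments 10 genes rose in both and 3 fell in both, 25 of 33 had the same sign, and 0 were called in opposite directions. Matching shares over all tested genes are not given for these counts, so they do not set the members apart from other genes.

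**Figure D2:**
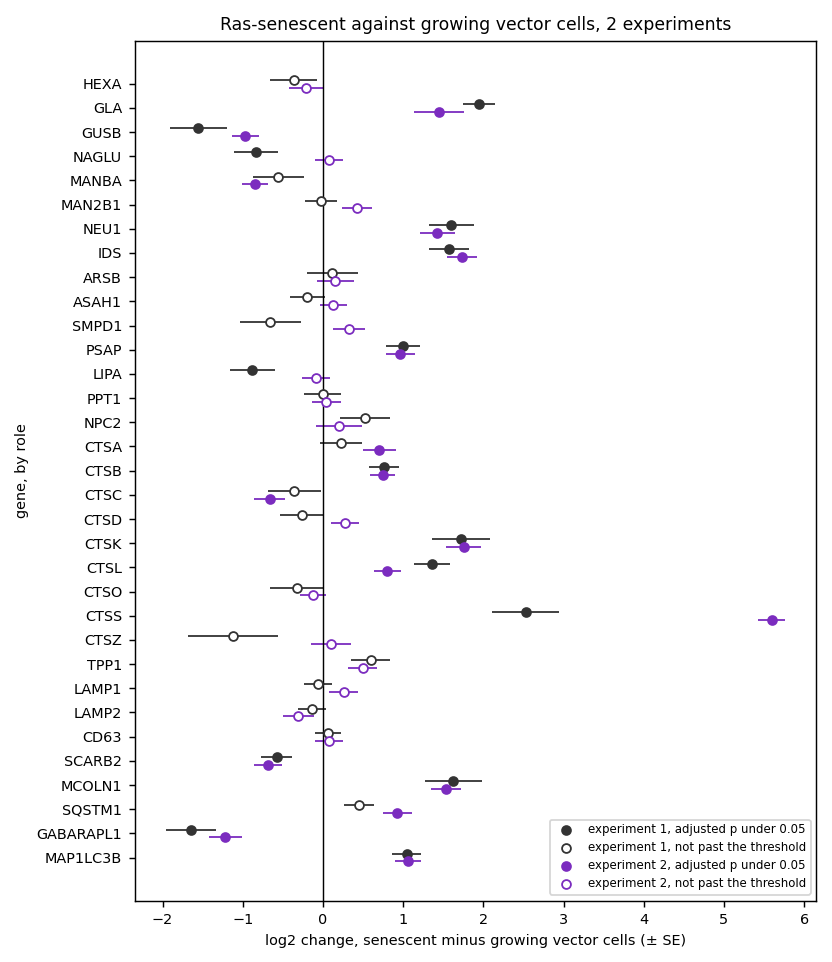
Log2 change from growing to senescent vector cells with its standard error (horizontal axis) for each gene by role (vertical axis), in experiment 1 and in experiment 2, with filled points where the adjusted p was under 0.05. CTSS lies farthest right in both, at 2.53 and 5.60 from growing arrays below the filter value, and GABARAPL1 lies at -1.65 and -1.22.

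Among the glycosidases and sulfatases, 3 of 9 rose and 2 fell in experiment 1, against 9.21% and 16.2% of all tested genes. GLA encodes α-galactosidase A, which removes galactose from glycolipids. Its level was 7.78 and 7.52 on the growing vector arrays and 9.59 and 9.60 on the senescent ones. In experiment 2 it was 8.41 and 7.77 against 9.56 and 9.52. Senescent arrays were above growing arrays in both experiments, by 1.94 ± 0.20 (SE, limma adjusted p = 2.58e-07) and 1.45 ± 0.31 (0.00652). IDS, the sulfatase that starts the breakdown of dermatan and heparan sulfate, read 7.90 and 7.50 on growing and 9.17 and 9.36 on senescent vector arrays. The arrays did not overlap, and the change was 1.57 ± 0.25 (adjusted p = 7.1e-05), with 1.73 ± 0.18 (0.000133) in experiment 2.

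NEU1, the sialidase that trims sialic acid in lysosomes, was at 5.66 and 5.77 in growing and 7.13 and 7.50 in senescent vector cells. In experiment 2 the values were 5.78 and 5.40 against 7.06 and 6.98. Both senescent arrays stood above both growing arrays each time, and the changes were 1.60 ± 0.28 (limma adjusted p = 0.00019) and 1.43 ± 0.22 (0.00107). GUSB, the β-glucuronidase, moved the other way. It read 7.61 and 7.48 in growing against 6.17 and 5.81 in senescent cells, and 7.03 and 6.78 against 5.98 and 5.89 in experiment 2. No senescent array reached a growing one, and GUSB fell by 1.55 ± 0.35 (adjusted p = 0.0023) and by 0.97 ± 0.17 (0.00242). NAGLU, a heparan sulfate glucosaminidase, fell by 0.83 ± 0.28 in experiment 1 (adjusted p = 0.0295) and was at 0.07 ± 0.17 in experiment 2 (0.771). Its call was lost without growing vector array 2 (-0.65), senescent vector array 1 (-0.80) or senescent vector array 2 (-0.86). MANBA, the β-mannosidase, fell in experiment 2 by 0.85 ± 0.17 (0.00427) and changed by -0.56 ± 0.32 in experiment 1 (0.22). Without senescent vector array 2 of experiment 2, its change was -0.78 (adjusted p = 0.0697).

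The probe set that names both GLB1 and TMPPE (GLB1_TMPPE) read 8.89 and 9.01 on growing and 8.50 and 8.51 on senescent vector arrays of experiment 1. In experiment 2 it read 8.54 and 8.40 on growing and 9.13 and 9.03 on senescent arrays. Senescent arrays were thus the lower pair in experiment 1 and the higher pair in experiment 2. The change was -0.44 ± 0.26 in experiment 1 (limma adjusted p = 0.225), 0.61 ± 0.17 in experiment 2 (0.0195), and 0.00 ± 0.13 over the 4 constructs of experiment 1 (0.977). The difference between the experiments was 1.05 ± 0.34 and did not pass the test (adjusted p = 0.129). This probe set cannot separate the transcripts of GLB1 and TMPPE.

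Of 6 genes of lipid breakdown and lipid handling, PSAP rose and LIPA fell in senescent vector cells of experiment 1. PSAP encodes the precursor of the saposins, which present lipids to hydrolases. It read 10.30 and 10.50 on growing and 11.30 and 11.50 on senescent arrays, with no overlap. The changes were 1.00 ± 0.21 (limma adjusted p = 0.00143) and 0.96 ± 0.18 in experiment 2 (0.00319), where it was 0.87 without senescent vector array 2 (0.0535). LIPA, the acid lipase that frees cholesterol and fatty acids, read 9.13 and 9.05 in growing and 7.92 and 8.50 in senescent cells. It fell by 0.88 ± 0.28 (adjusted p = 0.0246), and the change was -0.09 ± 0.17 in experiment 2 (0.728). Without senescent vector array 1 the LIPA change was -0.59 (adjusted p = 0.254), and the call was also lost without growing vector array 1 (-0.84) or 2 (-0.92).

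Among 10 cathepsins and peptidases, 4 rose and 0 fell in experiment 1, against 9.21% and 16.2% of all tested genes. These 4 were the cysteine proteases CTSB, CTSK, CTSL and CTSS. All of them rose in experiment 2 as well, where 18.7% of all tested genes rose. CTSS and CTSK passed the filter only through senescent or other non-growing arrays, so these counts are not free of the choice of group. CTSL read 9.05 and 8.85 in growing and 10.14 and 10.49 in senescent vector cells. Both senescent arrays were higher, by 1.36 ± 0.23 (limma adjusted p = 0.000113), with 0.80 ± 0.16 in experiment 2 (0.00508). CTSB, a cysteine protease of broad specificity, read 11.47 and 11.42 against 12.11 and 12.31. The change was 0.76 ± 0.19 (adjusted p = 0.00517) and fell short of the threshold without senescent vector array 2 (0.66, 0.0609). In experiment 2 the CTSB change was 0.74 ± 0.16 (0.00673). Both CTSB and CTSL lost their call in experiment 2 without senescent vector array 1 (0.80 and 0.76) or 2 (0.69 and 0.84).

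CTSK encodes a protease that cuts collagen. It read 4.51 and 4.06 on growing arrays, below the filter value of 5, and 6.04 and 5.98 on senescent vector arrays. The change was 1.73 ± 0.36 (limma adjusted p = 0.00117), and 1.75 ± 0.22 in experiment 2 (0.000332). CTSS encodes a cathepsin that stays active at neutral pH and is best known from antigen-presenting cells. It read 3.80 and 3.59 in growing and 6.91 and 5.54 in senescent vector cells of experiment 1, and 1.95 and 2.12 against 7.58 and 7.69 in experiment 2. Only senescent arrays passed the filter value of 5. The growing arrays of experiment 1 lay just above the array medians and those of experiment 2 well below them, a level with little signal over background, so the size of the changes is not exact. The fitted changes of CTSS were 2.53 ± 0.42 (adjusted p = 0.000119) and 5.60 ± 0.17 (2.76e-07), and 2 other CTSS probe sets gave 2.031 and 4.167 in experiment 1 and 4.476 and 3.99 in experiment 2. The difference between the experiments was 3.07 ± 0.56 (0.00316), of which the growing means (3.70 and 2.04) account for more than the senescent means (6.22 and 7.63). The probe set with 4.167 and 3.99 showed no larger change in experiment 2. The sources used here do not say whether the experiments were normalized jointly. CTSS was the 1 gene of the set whose change differed between the experiments, against 1.5% of all tested genes. The array mean of the 10 blood and macrophage markers was 2.94 to 3.13 on growing and 2.99 to 3.18 on senescent arrays. CTSD, an aspartic protease, read 5.36 and 5.50 in growing and 4.96 and 5.36 in senescent cells, and its change of -0.27 ± 0.27 did not pass the test (adjusted p = 0.524). CTSA, the carboxypeptidase that protects the NEU1 enzyme, rose in experiment 2 by 0.70 ± 0.21 (0.027), a call lost without any 1 of growing array 2 (0.46) and senescent vector arrays 1 (0.74) and 2 (0.66). CTSC, the dipeptidyl peptidase that activates serine proteases, fell in experiment 2 by 0.67 ± 0.19 (0.0244), a call lost without growing array 1 (-0.48), senescent vector array 1 (-0.74) or senescent vector array 2 (-0.60), and changed by -0.36 ± 0.33 in experiment 1 (0.48). The other CTSC probe sets past the filter changed by -0.632, -1.311 and -2.233 in experiment 1, so the small change there rests on the chosen probe set.

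Of 5 membrane proteins, 1 rose and 1 fell in experiment 1, against 9.21% and 16.2% of all tested genes. MCOLN1 encodes mucolipin-1, a cation channel that releases calcium from lysosomes. It read 5.45 and 5.54 in growing and 6.86 and 7.37 in senescent vector cells, and 5.80 and 5.66 against 7.42 and 7.12 in experiment 2. Senescent arrays were higher in both, with changes of 1.62 ± 0.36 (limma adjusted p = 0.00184) and 1.54 ± 0.18 (0.000296). SCARB2, a lysosomal membrane protein that acts as a sorting receptor, read 11.15 and 11.10 against 10.51 and 10.58. It fell by 0.58 ± 0.19 (adjusted p = 0.0283), a call lost on leaving out any 1 of the 4 arrays, and by 0.68 ± 0.18 in experiment 2 (0.0154), where it was lost without either senescent vector array. LAMP1 and LAMP2 are the abundant glycoproteins of the lysosomal membrane. LAMP1 read 12.14 and 12.06 in growing and 11.97 and 12.09 in senescent vector cells, and its change was -0.06 ± 0.18 (0.843). Its 3 other probe sets past the filter changed by 0.096, -0.247 and -0.365. Averaged over the 4 constructs they changed by 0.03, -0.298 and -0.61 in senescence and by 0.006, -0.209 and -0.913 in confluence. The last 2 were dim, with means of 4.704 and 4.624. LAMP2 read 10.63 and 10.53 against 10.24 and 10.65, with a change of -0.13 ± 0.17 (0.629). Its 3 other probe sets past the filter changed by 0.355, 0.485 and -0.605, so the direction for LAMP2 depends on the probe set. CD63, a tetraspanin, changed by 0.06 ± 0.16 (0.835). Over all 38 arrays LAMP1 stayed between 11.65 and 12.36 and CD63 between 12.20 and 12.83. LAMP1, CD63 and CTSD were the 3 tested genes that passed the test in 0 of 9 comparisons, namely the 3 state changes in vector cells, the 3 averaged ones, shRB in senescent cells and the 2 of experiment 2. CTSD read 4.68 to 5.90 over all 38 arrays, near the filter value of 5, which limits what its lack of calls shows.

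The autophagy genes moved in opposite directions. MAP1LC3B and GABARAPL1 encode related ubiquitin-like proteins that are coupled to autophagosome membranes. MAP1LC3B read 10.11 and 10.31 in growing and 11.21 and 11.30 in senescent vector cells. It rose by 1.04 ± 0.18 (limma adjusted p = 0.000189), and by 1.06 ± 0.16 in experiment 2 (0.00105). GABARAPL1 read 8.29 and 8.35 against 6.48 and 6.87, and 8.04 and 7.62 against 6.68 and 6.54 in experiment 2. No senescent array of this gene reached a growing one, and it fell by 1.65 ± 0.31 (adjusted p = 0.000497) and by 1.22 ± 0.20 (0.0019). SQSTM1 encodes p62, a receptor that links ubiquitinated cargo to autophagosomes. Its values were 10.46 and 10.29 in growing and 10.67 and 10.97 in senescent cells of experiment 1, and 9.80 and 9.70 against 10.66 and 10.71 in experiment 2. The higher senescent values passed the test in experiment 2 (0.93 ± 0.18, 0.00373) and not in experiment 1 (0.45 ± 0.19, 0.0962), with a difference between the experiments of 0.48 ± 0.26 (0.457). TFEB was not tested and read 3.87 to 4.55 on all 38 arrays.

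Averaged over the 4 constructs, 8 senescent against 8 growing arrays, 14 genes rose (42.4%) and 10 fell (30.3%), against 24.3% and 35.7% of all tested genes. This average contains the vector arrays described above and is not independent of them. Genes called here but not in vector cells alone included CTSC (-0.99 ± 0.17), ASAH1 (-0.38 ± 0.11), SMPD1 (-0.60 ± 0.19), LAMP2 (-0.44 ± 0.09), TPP1 (0.63 ± 0.12) and SQSTM1 (0.40 ± 0.10), with limma adjusted p between 3.1e-05 and 0.00962. For LAMP2, 2 of 3 other probe sets changed the other way in this average (0.506 and 0.473, against -0.814 for the third), as did the other TPP1 probe set (-0.259). Within single hairpins, 9 rose and 6 fell with shRB, 13 and 3 with shp107, and 11 and 5 with shp130. Of all tested genes, 32.8%, 38.2% and 32.7% changed in either direction in these 3 comparisons, and shares by direction are not given. GLA, IDS, PSAP, CTSB, CTSK, CTSL, CTSS and MAP1LC3B rose, and GABARAPL1 fell, with the vector and with each of the 3 hairpins. The share of all tested genes called with all 4 constructs is not given, so this list does not set the members apart from other genes. CTSS and CTSK in it passed the filter only through senescent or other non-growing arrays. MANBA also fell in the average (-0.40 ± 0.16, 0.0339), a call lost on leaving out any of 9 of the 16 arrays.

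Senescent cells were next set against the other non-growing cells with the vector. Against low serum, 10 genes were higher and 10 lower (60.6% in all, against 38.9% of all tested genes). Against confluent cells, 10 were higher and 6 lower (48.5%, against 33.4%). The 20 calls against low serum became 10 without low serum vector array 1, 17 without low serum vector array 2, and 14 and 13 without senescent vector arrays 1 and 2. The 16 against confluent cells became 12 to 15. These comparisons share the senescent vector arrays. GLA was higher by 2.58 ± 0.20 and 1.80 ± 0.20, NEU1 by 1.05 ± 0.28 and 2.02 ± 0.28, and MCOLN1 by 1.67 ± 0.36 and 1.62 ± 0.36. GABARAPL1 was lower by both measures, at -2.81 ± 0.31 and -2.67 ± 0.31. CTSK was lower in senescent than in confluent cells (-1.75 ± 0.36, limma adjusted p = 0.000884), and LIPA was lower than in low serum (-1.75 ± 0.28, 4.77e-05) but higher than in confluent cells (0.96 ± 0.28, 0.0118). The last was lost without confluent vector array 1 (0.68, 0.131) or senescent vector array 2 (0.67, 0.162), and that of NEU1 against low serum without senescent vector array 2 (0.86, 0.0633).

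The study also asked what suppression of RB, p107 or p130 did in each state. In growing cells 0 members passed the test with any hairpin, against 0.188% of all tested genes with shRB, 0% with shp107 and 0.0587% with shp130. At an unadjusted limma p under 0.05 the counts were 2, 0 and 2. Here and below, no share of all tested genes at the unadjusted threshold is given, so unadjusted counts do not set the members apart. In low serum 0 members passed as well, against 0.0822%, 0.0352% and 0.27%, with unadjusted counts of 1, 3 and 3. The 0 calls do not show that the hairpins had no effect in these states, and the difference between states was tested gene by gene for shRB.

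In senescent cells shRB gave 2 higher (6.06%) and 6 lower members (18.2%) than the vector, against 5.98% and 3.77% of all tested genes. The median over the 33 was -0.33, against -0.02 over all tested genes, and 22 of 33 were below 0. Without senescent vector array 2 the calls numbered 4 and without senescent shRB array 2 they numbered 5, in place of 8. GUSB read 6.17 and 5.81 with the vector and 8.94 and 7.97 with shRB, and in experiment 2 5.98 and 5.89 against 7.50 and 7.53. Every shRB array was the higher, by 2.46 ± 0.35 (limma adjusted p = 6.37e-05) and 1.58 ± 0.17 (0.000838). MCOLN1 read 6.86 and 7.37 with the vector and 5.04 and 4.55 with shRB, and 7.42 and 7.12 against 5.57 and 5.79 in experiment 2. The shRB arrays lay at or below the level of growing vector cells in experiment 1, and the change was -2.32 ± 0.36 (0.000157) and -1.59 ± 0.18 (0.0012). CTSS read 6.91 and 5.54 with the vector and 9.31 and 8.15 with shRB, and was higher with shRB by 2.51 ± 0.42 (0.000415), and by 0.70 ± 0.17 in experiment 2 (0.0235). Its 2 vector arrays were far apart in experiment 1, and in experiment 2 the call was lost without senescent vector array 1 (0.65), senescent vector array 2 (0.76) or senescent shRB array 2 (0.63).

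NEU1 read 7.13 and 7.50 with the vector and 5.88 and 5.07 with shRB. Both shRB arrays were lower, and the change was -1.84 ± 0.28 (limma adjusted p = 0.00013). In experiment 2 NEU1 read 7.06 and 6.98 against 6.69 and 6.23, and the change of -0.56 ± 0.22 did not pass the test (0.0992). MAP1LC3B read 11.21 and 11.30 against 10.64 and 10.35 with shRB. Both shRB arrays were the lower ones (-0.76 ± 0.18, 0.00834), with the call lost without senescent vector array 2 (-0.72, 0.0817) or senescent shRB array 2 (-0.62, 0.111). CTSC read 10.93 and 11.23 against 9.93 and 9.46. Its change of -1.39 ± 0.33 (0.00886) was lost without senescent vector array 2 (-1.23, 0.106) or senescent shRB array 2 (-1.15, 0.107). LAMP2 (-0.68 ± 0.17, 0.0141) was at -0.48 without senescent vector array 2 (0.242) and at -0.59 without senescent shRB array 1 (0.116). ASAH1, the acid ceramidase (-0.78 ± 0.22, 0.0264), lost its call without any 1 of the 4 arrays, and 1 of its 3 other probe sets changed by 0.034. The probe set of GLB1_TMPPE differed by 0.09 ± 0.26 (0.894) in experiment 1 and by -0.47 ± 0.17 in experiment 2 (0.0789).

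**Figure D3:**
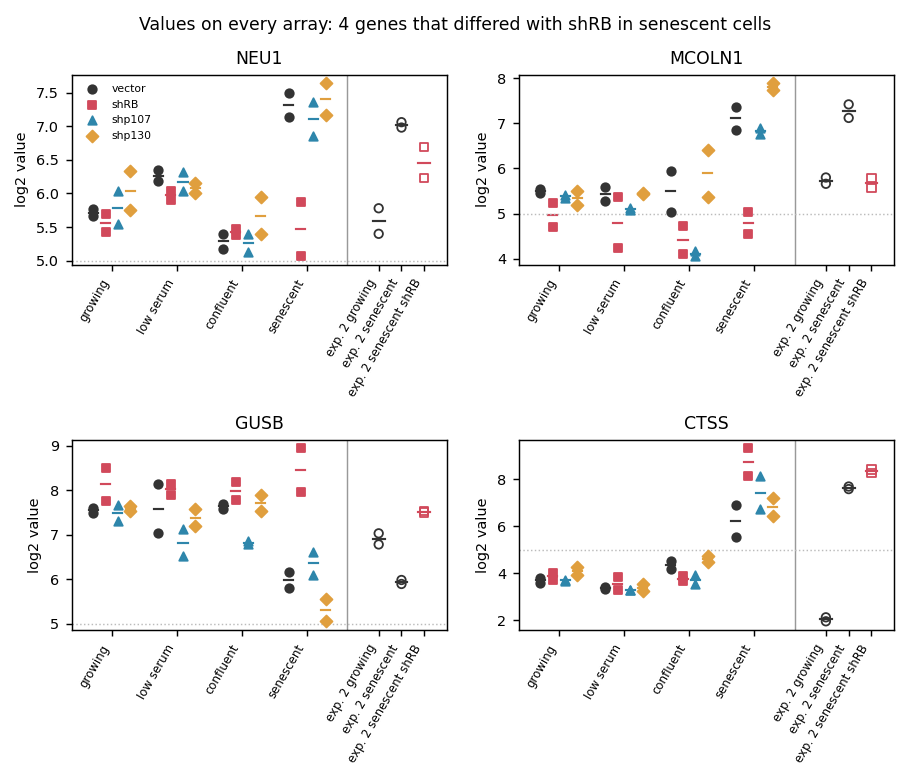
Log2 values on single arrays (vertical axis) of NEU1, MCOLN1, GUSB and CTSS by state and construct (horizontal axis), with filled points for experiment 1, open points for experiment 2, short bars at group means and a dotted line at the filter value of 5. For NEU1 and MCOLN1 the senescent shRB arrays of experiment 1 sit near the growing arrays, while for GUSB they sit above the other senescent arrays.

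In experiment 2, 3 members were higher (9.09%) and 3 lower (9.09%) with shRB in senescent cells, against 10.9% and 9.24% of all tested genes, so the shares were near the background. Without either senescent vector array the 6 calls became 2. GUSB, CTSS and MCOLN1 were called in both experiments in the same direction, though 2 other CTSS probe sets differed by 0.301 and 0.062 in experiment 2 against 0.704 for the chosen one, and 26 of 33 members had the same sign. No matching share over all tested genes is given for either count. IDS (-0.98 ± 0.18, limma adjusted p = 0.00911) and SMPD1, the acid sphingomyelinase (-1.03 ± 0.20, 0.0109), were called lower with shRB in experiment 2 and not in experiment 1, where the changes were 0.04 and -0.76, and the difference was not tested. The 5 other IDS probe sets past the filter were all lower with shRB in experiment 1 as well (-0.539 to -1.477), so the value of 0.04 rests on the chosen probe set. Both calls were lost without senescent vector array 1 (adjusted p = 0.0927 and 0.0921) or 2 (0.11 and 0.116), with the changes nearly as large. MANBA (0.59 ± 0.17, 0.0407) lost its call without any 1 of the 4 arrays.

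The change from growing to senescent cells was compared between shRB and vector cells of experiment 1. It differed for 2 members, against 1.99% of all tested genes. An unadjusted limma p under 0.05 was seen for 7 members, and the 1.99% is no background for that count. NEU1 changed by 1.60 with the vector and by -0.09 ± 0.28 with shRB, a difference of -1.69 ± 0.39 (adjusted p = 0.0237). CTSS rose by 2.53 with the vector and by 4.87 ± 0.42 with shRB, a difference of 2.34 ± 0.60 (0.0416). The NEU1 call was lost on leaving out 6 of the 8 arrays in turn (-1.28 to -1.83) and the CTSS call on leaving out 6 of 8 (1.66 to 2.49). GUSB fell by 1.55 with the vector and changed by 0.32 ± 0.35 with shRB, and the difference of 1.88 ± 0.50 did not pass (0.0537). MCOLN1 rose by 1.62 with the vector and changed by -0.17 ± 0.36 with shRB, and the difference of -1.79 ± 0.50 did not pass either (0.0763). For low serum, 0 members differed, against 0% of all tested genes, and 0 had an unadjusted p under 0.05.

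The other hairpins were compared with the vector in senescent cells in the same way. MAN2B1, the α-mannosidase, was higher with shp107 (1.11 ± 0.20, limma adjusted p = 0.00149), the 1 call among the members against 7.84% of all tested genes. Without senescent shp107 array 2 its change was 0.83 (0.0531). With shp130 there were 0 calls, against 1.67% of all tested genes, and 3 members at an unadjusted p under 0.05. NEU1 read 6.85 and 7.36 with shp107 and 7.17 and 7.64 with shp130, within or near the vector range. MCOLN1 read 6.90 and 6.76 with shp107 and 7.89 and 7.73 with shp130. GUSB read 6.62 and 6.10 with shp107 and 5.05 and 5.55 with shp130, so shRB was the only construct with senescent arrays above 7.

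A direct comparison of senescent cells gave 2 members higher and 10 lower with shRB than with shp107, against 22.6% of all tested genes called in either direction. Against shp130 there were 2 higher and 6 lower, against 12.6% in either direction. Shares by direction are not given, so the balance of higher and lower members has no background here. The 12 calls against shp107 became 7 without senescent shRB array 1 and 5 without senescent shp107 array 2. The 8 calls against shp130 became 5 without senescent shRB array 2 or senescent shp130 array 2. Both comparisons use the same shRB arrays. GUSB was higher with shRB by 2.09 ± 0.35 (limma adjusted p = 0.000285) and 3.15 ± 0.35 (2.44e-06). NEU1 was lower (-1.63 ± 0.28, 0.000345, and -1.93 ± 0.28, 5.94e-05), as was MCOLN1 (-2.03 ± 0.36, 0.000436, and -3.01 ± 0.36, 5.4e-06). These 3 calls were kept on leaving out any 1 array of either comparison. MAP1LC3B was also lower against both (-1.13 ± 0.18, 0.000191, and -0.78 ± 0.18, 0.00633), and CTSS higher (1.30 ± 0.42, 0.0317, and 1.92 ± 0.42, 0.00395). The MAP1LC3B call against shp130 was lost without senescent shRB array 2 (-0.63) or senescent shp130 array 2 (-0.70). The CTSS call against shp107 was lost without senescent shp107 array 2 (0.61, 0.505) or senescent shRB array 1 (0.72, 0.331), and that against shp130 without senescent shRB array 1 (1.34) or senescent shp130 array 2 (1.55).

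Low serum and confluence are 2 ways to stop fibroblast growth without senescence. In low serum 5 members rose in vector cells (15.2%) and 1 fell (3.03%), against 6.69% and 6.36% of all tested genes. Leaving out 1 array left 0 to 4 calls, with 2 without growing vector array 1, and 0 without growing vector array 2 or low serum vector array 1. GABARAPL1 read 8.29 and 8.35 in growing and 9.77 and 9.19 in low serum vector cells. Both low serum arrays were higher, by 1.16 ± 0.31 (limma adjusted p = 0.0186). The other rises were TPP1, a tripeptidyl peptidase (0.87 ± 0.24, 0.0215), ARSB, the sulfatase of dermatan sulfate (1.01 ± 0.31, 0.0372), CTSO, a cysteine protease (1.06 ± 0.34, 0.0413), and LIPA (0.87 ± 0.28, 0.0445). GLA fell by 0.63 ± 0.20 (0.0393). On leaving out each of the 4 arrays in turn, GLA and LIPA lost their call each time, ARSB, CTSO and GABARAPL1 lost it 3 times and TPP1 lost it 2 times.

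Averaged over the 4 constructs, low serum gave 11 higher (33.3%) and 2 lower members (6.06%), against 19.2% and 18.8% of all tested genes. GABARAPL1 read 7.52 to 8.36 (median 8.22) on the 8 growing and 8.93 to 9.77 (median 9.18) on the 8 low serum arrays. The ranges did not overlap, and it rose by 1.13 ± 0.16 (limma adjusted p = 9.56e-06). LIPA read 8.60 to 9.37 in growing and 9.53 to 10.36 in low serum cells, again without overlap, and rose by 0.86 ± 0.14 (6.16e-05). CTSC read 11.29 to 11.75 against 12.10 to 12.57, and rose by 0.78 ± 0.17 (0.000924). HEXA, which takes part in ganglioside breakdown, read 6.87 to 7.49 against 7.73 to 8.45, and rose by 0.79 ± 0.15 (0.000242). None of these 4 genes had a growing array as high as a low serum one. TPP1 (0.70 ± 0.12), CTSK (1.02 ± 0.18), NPC2, a cholesterol carrier (0.67 ± 0.16), ARSB (0.73 ± 0.16), CTSO (0.66 ± 0.17) and MAP1LC3B (0.39 ± 0.09) rose too. The other MAP1LC3B probe set changed by only 0.073 in this average. GLA fell by 0.45 ± 0.10 and PPT1, which removes palmitate from proteins, by 0.40 ± 0.11. ASAH1 (0.35 ± 0.11, 0.017) was at 0.27 without low serum shRB array 1 (0.0533), and 1 of its 3 other probe sets changed by -0.5.

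In confluent vector cells 5 members rose (15.2%) and 3 fell (9.09%), against 10.5% and 14.5% of all tested genes. The count of 8 became 5 without growing vector array 1 and 3 without growing vector array 2. CTSK read 4.51 and 4.06 in growing and 7.47 and 8.06 in confluent cells. Both confluent arrays were far above the growing ones, by 3.48 ± 0.36 (limma adjusted p = 8.42e-07). LIPA read 9.13 and 9.05 against 6.97 and 7.53, and fell by 1.84 ± 0.28 (6.75e-05). These 2 calls were kept without each array. SMPD1 read 6.81 and 7.12 against 4.50 and 6.22. Both confluent arrays were lower but stood apart from each other, and the fall of 1.61 (-1.61 ± 0.38, 0.00364) was -0.74 without confluent vector array 1 (0.12) and -1.45 without growing vector array 2 (0.0525).

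The other 5 calls in confluent vector cells each depended on at least 1 array. GABARAPL1 rose by 1.02 ± 0.31 (limma adjusted p = 0.0211) and was at 0.59 without confluent vector array 2 (0.258), at 0.99 without growing vector array 1 and at 1.05 without growing vector array 2, none of them called. TPP1 (0.84 ± 0.24, 0.0146) was not called without growing vector array 2 (0.65) or confluent vector array 2 (0.66). IDS (0.71 ± 0.25, 0.0411) was at 0.32 without confluent vector array 1 (0.451), and 2 other IDS probe sets changed by -0.116 and -0.437. CTSZ, a carboxypeptidase (-1.65 ± 0.57, 0.0368), was at -1.19 without confluent vector array 1 (0.235), at -1.52 without growing vector array 1 and at -1.79 without growing vector array 2. MAN2B1 rose by 0.72 ± 0.20 (0.0124) and was at 0.56 without growing vector array 1 (0.121) and at 0.60 without confluent vector array 1 (0.0903).

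Averaged over the 4 constructs, confluence gave 7 higher (21.2%) and 5 lower members (15.2%), against 17.8% and 27% of all tested genes. CTSK read 3.94 to 4.86 (median 4.17) on growing and 5.99 to 8.84 (median 7.10) on confluent arrays, with no overlap. It rose by 3.07 ± 0.18 (limma adjusted p = 6.74e-11). TPP1 rose by 0.89 ± 0.12 (5.83e-06), CTSO by 0.90 ± 0.17 (0.000196), GABARAPL1 by 0.87 ± 0.16 (0.000139) and PSAP by 0.58 ± 0.11 (0.00018). LIPA fell by 1.02 ± 0.14 (6.24e-06) and SMPD1 by 0.76 ± 0.19 (0.00263). The falls of NEU1 (-0.37 ± 0.14, 0.0376) and CTSL (-0.29 ± 0.11, 0.0425) were lost on leaving out any of 10 and of 11 of the 16 arrays. GABARAPL1 was thus higher than in growing cells in both non-senescent states and lower in senescent cells, where its 8 arrays read 5.88 to 6.87.

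**Figure D4:**
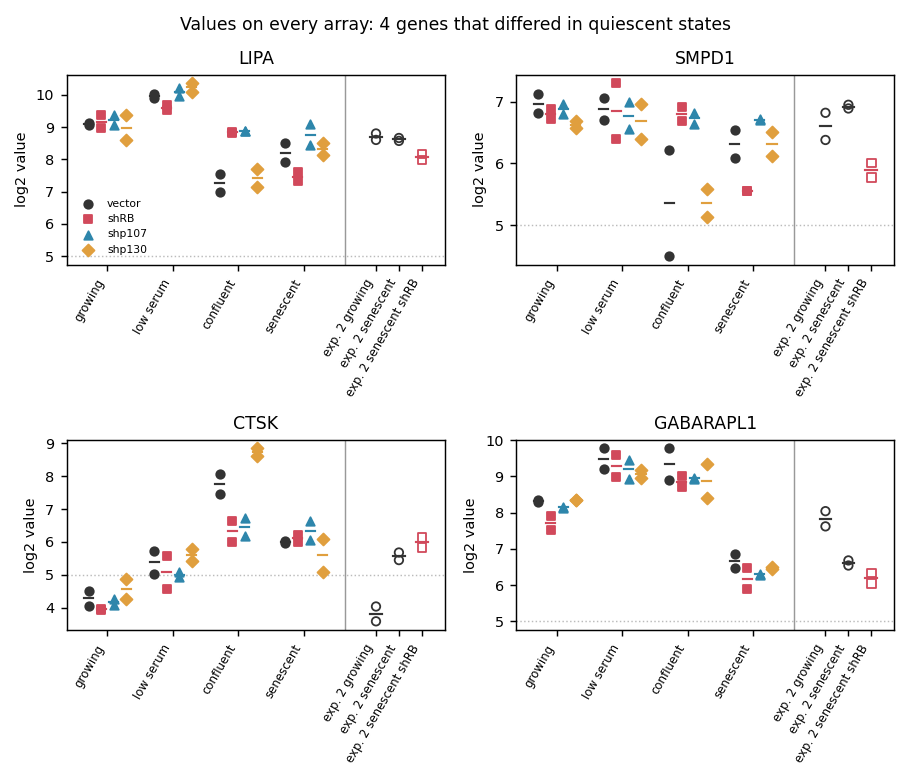
Log2 values on single arrays (vertical axis) of LIPA, SMPD1, CTSK and GABARAPL1 by state and construct (horizontal axis), with filled points for experiment 1, open points for experiment 2, short bars at group means and a dotted line at 5. GABARAPL1 lies above the growing arrays in low serum and confluence and below them in senescence, and CTSK is highest in confluent cells.

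In confluent cells the hairpins differed from the vector at several members. With shRB 4 were higher and 4 lower, against 7% and 10.5% of all tested genes. With shp107 3 were higher and 4 lower, against 7.32% and 6.17%. With shp130 there were 0 calls, against 0.0235%, and 2 members at an unadjusted limma p under 0.05. The 8 shRB calls became 3 without confluent shRB array 1 and 5 without confluent shRB array 2, and the 7 shp107 calls became 2 and 1 without confluent shp107 arrays 1 and 2. All 3 comparisons share the confluent vector pair, the replicate pair with the lowest correlation, so their calls are not independent. Without confluent vector array 1 the median difference of the members was -0.08 with shRB and -0.31 with shp107. Without confluent vector array 2 it was 0.30 and 0.08, so the balance of higher and lower members depends on the vector array kept. LIPA read 6.97 and 7.53 with the vector, 8.81 and 8.86 with shRB, 8.88 and 8.87 with shp107, and 7.71 and 7.14 with shp130. The shRB and shp107 arrays lay near the growing level and the shp130 arrays near the vector. The differences from the vector were 1.59 ± 0.28 (adjusted p = 0.000414), 1.62 ± 0.28 (0.000331) and 0.18 ± 0.28 (0.99). LIPA changed from growing to confluent cells by -1.84 with the vector and -0.34 ± 0.28 with shRB. The difference of 1.51 ± 0.40 (0.044) was the 1 call among the members, against 2.55% of all tested genes. An unadjusted p under 0.05 was seen for 6 members, and the 2.55% is no background for that count. The LIPA call was lost on leaving out 7 of the 8 arrays in turn (1.22 to 1.70), while leaving out confluent vector array 2 gave 5 such calls among the members.

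CTSK read 5.99 and 6.65 in confluent shRB cells, 6.72 and 6.17 with shp107 and 8.84 and 8.61 with shp130, against 7.47 and 8.06 with the vector. It was lower with shRB (-1.45 ± 0.36, limma adjusted p = 0.00773) and with shp107 (-1.32 ± 0.36, 0.0162). The shRB call was lost without confluent vector array 2 (-1.15, 0.0638) or confluent shRB array 1 (-1.11, 0.13), and the shp107 call without confluent vector array 2 (-1.02) or confluent shp107 array 2 (-1.04). Within each hairpin, CTSK still rose on confluence, by 2.36 ± 0.36 with shRB, 2.28 ± 0.36 with shp107 and 4.15 ± 0.36 with shp130. SMPD1 was higher than with the vector by 1.44 ± 0.38 with shRB (0.011) and by 1.37 ± 0.38 with shp107 (0.0166). Without confluent vector array 1 these values were 0.57 (0.355) and 0.51 (0.452), and the shp107 call was also lost without either confluent shp107 array (1.28 and 1.46). IDS was lower with shRB (-1.29 ± 0.25, 0.000959), a call kept without each array, but its 5 other probe sets past the filter differed by only -0.462 to 0.03. MCOLN1 was lower with shRB (-1.07 ± 0.36, 0.0416) and shp107 (-1.39 ± 0.36, 0.0105). The shRB value was -0.61 without confluent vector array 2 (0.315) and -0.77 without confluent shRB array 1 (0.333), and the shp107 value was -0.93 without confluent vector array 2 (0.129), -1.34 without confluent shp107 array 1 (0.0728) and -1.44 without confluent shp107 array 2 (0.0571). GLA was lower with shRB (-0.87 ± 0.20, 0.00397) and shp107 (-0.77 ± 0.20, 0.0105), and the shRB value was -0.63 without confluent shRB array 1 (0.103). The shp107 call was lost without confluent vector array 2 (-0.68, 0.0578) or confluent shp107 array 1 (-0.79, 0.0594) or 2 (-0.76, 0.0725). CTSA (0.82 ± 0.26, 0.0362) and NPC2 (0.93 ± 0.31, 0.0466) were higher with shRB, and without confluent vector array 1 they were at 0.28 each (0.62 and 0.685).

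**Figure D5:**
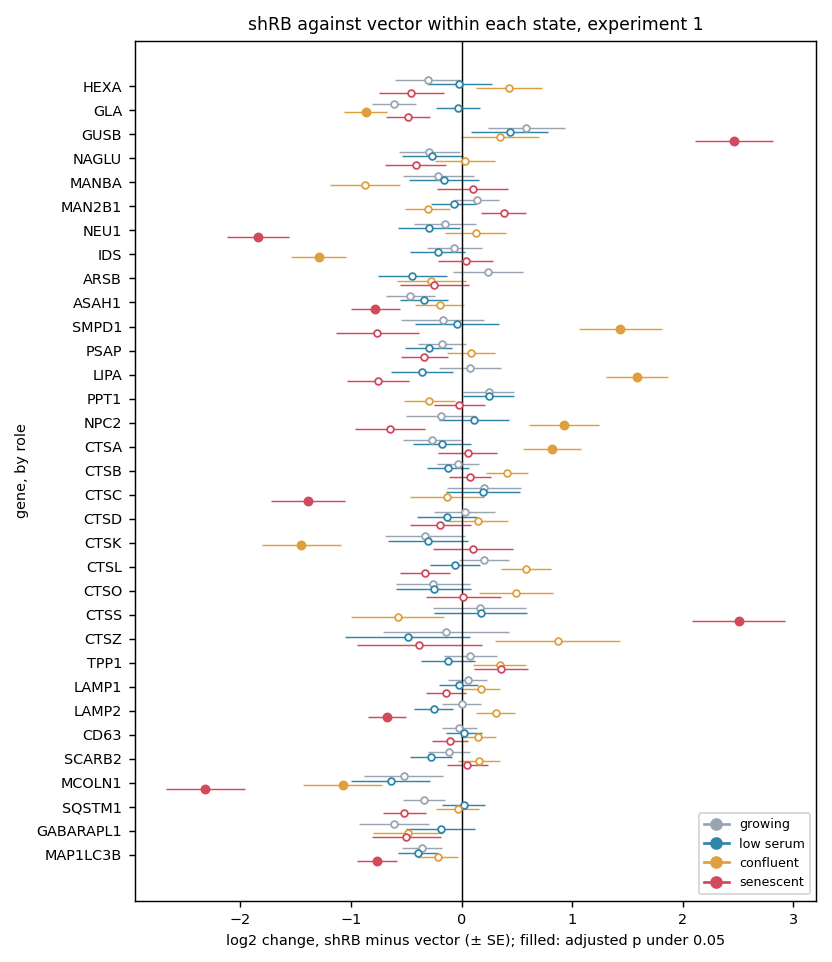
Log2 difference between shRB and vector cells with its standard error (horizontal axis) for each gene by role (vertical axis), in the 4 states of experiment 1, with filled points where the adjusted p was under 0.05. Filled points appear in confluent and senescent cells, with GUSB at 2.46 and MCOLN1 at -2.32 in senescent cells.

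The wider pathway was described with 104 further genes, of which 77 were tested. This list was also chosen with earlier results of these data known, so its shares are not independent of these arrays. In senescent vector cells of experiment 1, 15 rose (19.5%) and 7 fell (9.09%), against 9.21% and 16.2% of all tested genes. Leaving out 1 array left 13 to 15 of these 22 calls, with 13 without growing vector array 2 or senescent vector array 2 and 14 without senescent vector array 1. Of 14 subunits and accessory proteins of the proton pump that acidifies lysosomes, 6 rose and 0 fell, among them ATP6V1C1 (1.54 ± 0.20, limma adjusted p = 7.05e-06) and ATP6V1B2 (1.36 ± 0.21, 6.61e-05). Of 13 further membrane and transport genes 4 rose and 0 fell, including the cholesterol transporter NPC1 (1.04 ± 0.38) and the chloride exchanger CLCN7 (0.91 ± 0.26). Of 16 further enzymes 0 rose and 6 fell, including the galactosylceramidase GALC (-1.76 ± 0.32, 0.000303) and MAN2B2 (-1.40 ± 0.28, 0.000712). Of 28 further autophagy genes 5 rose and 1 fell. ATG14, a subunit of the kinase complex that starts autophagosomes, rose by 1.68 ± 0.33 (0.000712), while MAP1LC3A, a relative of MAP1LC3B, fell by 1.63 ± 0.26 (6.71e-05). Of 6 further regulators 0 passed the test, with 2 at an unadjusted p under 0.05. In experiment 2, 36 of the 77 rose and 7 fell, against 18.7% and 20.6% of all tested genes, with 11 of the 14 proton pump genes higher. With shRB in senescent cells of experiment 1, 0 of the 77 were higher and 8 lower than with the vector, against 5.98% and 3.77% of all tested genes, of which 4 were membrane and transport genes.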

How the data were processed

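The deposited values were used as given. They are log2 expression values made by the authors with GCRMA, per the submitters' processing notes, 1 per probe set and array. The sources used here do not say whether the experiments were normalized jointly. Of 54613 probe sets, 41091 named 1 gene. Each of 19775 genes was taken from the probe set with the highest mean among those naming it alone. Over calls in 6 comparisons (the 3 state changes in vector cells, shRB in senescent cells, and the 2 of experiment 2), 61 values from other probe sets of the same member past the filter had the sign of the chosen one and 3 did not. Uncalled changes were not part of this count, and LAMP1, LAMP2, TPP1, ASAH1, IDS, CTSB, SCARB2, SQSTM1 and MAP1LC3B were among the members with probe sets of both signs elsewhere. The tests took genes with at least 2 experiment 1 arrays above log2 5. Each experiment was fitted with limma 3.58.1 (R 4.3.3, with the data.table package at 1.17.8), 1 mean per group, moderated variances (residual degrees of freedom 16 and 3, prior 4.85 and 5.35) and Benjamini-Hochberg adjustment over 8511 genes, with calls at an adjusted p under 0.05. The difference between experiments came from 1 fit of all arrays. Errors after ± are standard errors with n = 2 arrays per group. The number of arrays limits the precision. The fit was tested on simulated data. Tables and figures used Python 3.11.15, pandas 2.3.3, numpy 2.4.6 and matplotlib 3.10.9.

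Members and gene lists were chosen with earlier results of these data known. Members called in at least 1 of 9 comparisons were named in full, with GLB1, LAMP1, LAMP2, CTSD, TFEB and SQSTM1 whether called or not, and other members by counts. Of the wider pathway, up to 4 called genes per list were eligible by size of change. The comparison of shRB with shp107 and shp130 was added after seeing the data. Alternatives were quantile normalization, no filter, a filter at 6, the mean of all probe sets, a replicate block, an intensity trend, both experiments in 1 fit, and leaving out each array. Same-numbered arrays showed no common pairing over all groups: correlations of their deviations between groups ran from -0.38 to 0.49 (median 0.04), with 38 of 120 over 0.1. Most of these pairs of groups joined different constructs, so the check cannot decide whether arrays of the same construct pair between states.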

Additional observations from a re-analysis of the deposited data

Results flagged for a closer look

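LIPA changed differently on confluence with shRB and with the vector, by a test of the difference itself (1.51 ± 0.40, limma adjusted p = 0.044). The change of NEU1 on senescence differed between shRB and vector cells (-1.69 ± 0.39, 0.0237). That of CTSS did too (2.34 ± 0.60, 0.0416). The fitted change of CTSS on senescence was larger in experiment 2 than in experiment 1 (3.07 ± 0.56, 0.00316). Its growing means were 2.04 and 3.70, with little signal over background, so the size of this difference is not exact, and another CTSS probe set changed by 3.99 and 4.167. All 4 are limma tests of differences between differences, each resting on 8 arrays.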

How the results depend on the processing

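Of 185 gene-level calls and values checked, 0 reversed under any alternative run. Among 1274 values under alternatives other than leaving out an array, 55 calls were lost. A member that an alternative did not test has no value under it and is not among these. Of 1344 values without 1 array, 230 calls were lost, and 104 of the 185 were kept throughout. Quantile normalization gave 5 differences of the state effect between shRB and vector in place of 3, no filter gave 1, and fitting both experiments together gave 6. Without a filter, low serum gave 3 calls in vector cells in place of 6, and shRB in confluent cells gave 5 (2 higher, 3 lower) in place of 8. The mean of all probe sets gave 5 confluent calls in vector cells (2 higher, 3 lower) in place of 8 (5 higher, 3 lower), and 3 within shRB in place of 5. That setting tested 29 members among 6796 genes, and no filter tested 38 among 19775, in place of 33 among 8511. The shRB calls in senescent cells of experiment 2 (6) became 3 with both experiments in 1 fit and 10 with the replicate block. The block also gave 2 calls for shp107 in senescent cells in place of 1. Whether the replicate numbers pair the arrays of a construct was not settled. Leaving out 1 array gave 0 to 4 calls for low serum, 3 to 8 for confluence, 0 to 10 for the state effect difference, 4 to 7 for shRB in senescent cells (8), 8 to 19 for the other hairpin comparisons (16), 13 to 21 for shRB against shp107 and shp130 (20), 10 to 17 for senescent against low serum cells (20), 10 to 17 for experiment 2 senescence (17), 2 to 5 for its shRB effect (6) and 13 to 15 for the wider pathway (22). Apart from the smaller number of arrays, the cause was not tested. Quantile normalization moved the median senescent change of all genes in vector cells from -0.10 to 0.04. Values near or below the array median have little signal over background, which limits the size of change that can be read for CTSS, CTSK and CTSO.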
